A study of Bos taurus with 10 samples.

Results

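The genes described are the 67 heat shock protein and DNAJ co-chaperone genes of bovine early blastocysts, compared between WT and SOX2 KO embryos. They were chosen by symbol, as every gene named HSP90, HSPA, HSPB, HSPD, HSPE, HSPH, DNAJA, DNAJB or DNAJC with a number or subclass letter, and all 67 reached the minimum mean of 1 normalized read count over the 10 embryos. They make up 25 heat shock protein genes and 42 DNAJ genes among 20112 genes in the table, of which 20056 were tested. RNA of single embryos was sequenced by the Smart-seq2 protocol, which amplifies polyadenylated RNA from very small inputs. Both groups were bovine embryos made by in vitro fertilization, and the labels give their age as 7.0 days after fertilization at the early blastocyst stage, while the study's text places collection slightly later. The 5 WT embryos received BE3 mRNA alone at the zygote stage. The 5 SOX2 KO embryos received BE3 mRNA together with sgRNAs against SOX2, so the base editor is present in both groups. BE3 is a cytosine base editor, which turns chosen codons into stop codons without cutting the gene out, and the study genotyped each embryo from part of its cDNA. Each library is 1 whole embryo, a mixture of trophectoderm and inner cell mass, and the embryos are named here nc1 to nc5 (WT) and ko1 to ko5 (SOX2 KO) after the columns of the deposited table.

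Molecular chaperones hold unfolded proteins and help them to fold. The HSP70 proteins (HSPA genes) bind short hydrophobic stretches in a cycle driven by ATP, which J-domain proteins (DNAJ genes) start by stimulating ATP hydrolysis, and which the HSP110 proteins (HSPH1, HSPA4 and HSPA4L) reset as nucleotide exchange factors. HSP90 proteins act later, on nearly folded clients such as kinases and steroid receptors. Small heat shock proteins (HSPB genes) hold unfolding proteins without ATP, and the mitochondrial chaperonin of HSPD1 and HSPE1 encloses them in a chamber. Heat and other stress act through the transcription factor HSF1 to raise inducible members such as HSPA1A. The constitutive members are abundant in early embryos of many mammals.

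The WT libraries held 2223670 to 5134855 reads, and the SOX2 KO libraries 2578284 to 4337342. Among WT embryos 15919 to 18092 genes had a read, and among SOX2 KO embryos 17987 to 19813. The ribosomal RNA gene RN18S1 made up 26.4 to 37.0% of a WT library and 32.5 to 45.0% of a SOX2 KO library. Over the 4548 genes whose mean reached 100, the embryo ko4 was the highest of the 5 SOX2 KO embryos in 44.7%, and nc3 the lowest of the 5 WT embryos in 37.5%, so values without ko4 or nc3 are given beside the results that turn on them. SOX2 was at 56.5, 93.4, 83.5, 73.0 and 84.4 in WT and at 39.0, 26.4, 64.0, 82.1 and 71.5 in SOX2 KO embryos, with a log2 fold change of -0.55 ± 0.27 (SE, limma, adjusted p = 0.167). A stop codon need not remove the transcript, so this count does not check the labels. Of 8 epiblast markers, 4 were called lower in SOX2 KO embryos, beside 1.16% of all tested genes. By the adjusted p alone 6 were lower, beside 3.2%, while TDGF1 and LIN28B did not pass the test in limma. The sum of all 8 was 1859 to 2275 in the WT group and 973 to 1301 in the SOX2 KO group. Most of it came from POU5F1, with means of 1212 and 723. The sum of 11 trophectoderm markers was 25543 to 37619 and 34979 to 47956, most of them from KRT8 and KRT18. In this list KRT18 rose by 0.73 on the log2 scale (limma, adjusted p = 0.0394) and TFAP2C fell by 0.49 (limma, adjusted p = 0.0352), while the other 9 did not pass the test. Both marker sums were above 0 in every embryo. Their part in the results that follow was not tested.

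Most of the 67 genes showed no detectable difference, and those that did were few and split in direction. The small heat shock gene HSPB1 fell in SOX2 KO embryos, while HSPB3, DNAJA4 and DNAJC1 rose. HSP90AA1, DNAJA1 and DNAJC19 also fell, but by less than 2-fold. A gene was called when its adjusted p in limma was at most 0.05 and its fold change at least 2 or at most 0.5. By this rule 3 of the 67 members were called higher, where 8.93% of all tested genes were called higher, and 1 was called lower, where 1.16% of all tested genes were. By the adjusted p alone 4 members were lower, beside 3.2% of all genes, and the same 3 were higher, beside 10.4%. The log2 fold change was above 0 in 33 members and below 0 in 34, with a median of -0.0026, while the median over all tested genes was 0.25. Quantile normalization moved the median of all genes by -0.27 and their calls from 1792 higher and 232 lower to 629 and 447, and it left 3 members called higher and 3 lower. With the RN18S1 share as a covariate HSPB1 (adjusted p = 0.0174) and HSPB3 (adjusted p = 0.0378) were still called by limma, while the other 5 genes had an adjusted p of 0.179 to 0.516.

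The chaperone genes differ from the whole table in how many reads they take, which bears on these shares. Only 10 of the 67 members had a mean under 10, and limma called none of them, where it called 14.1% of the 8722 genes of that range higher. At an unadjusted p under 0.05, 2 of these 10 were higher, beside 35.8% of the genes of that range, and 2 lower, beside 1.19%, and neither DESeq2 nor edgeR called any. In this range the median log2 fold change was 0.79 in the members and 0.93 in all genes. Of 28 members with a mean from 10 to under 100, 3 were called higher, beside 6.76% of the 6786 genes of that range. Of 29 members whose mean reached 100, 1 was called lower, beside 1.34% of 4548 genes, and 4 were lower by the adjusted p alone, beside 8.16%. Their median was -0.09, and that of all genes in this range -0.11. The plot of fold change against mean shows the members spread within the cloud of all genes, with HSPB1 at its lower edge among the genes of high count.

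**Figure D1:**
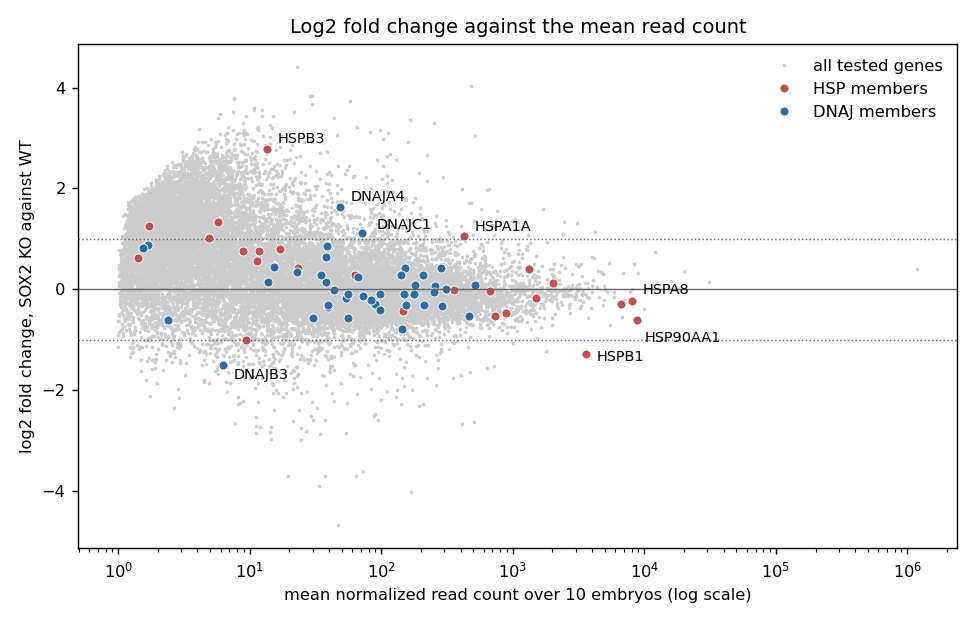
Log2 fold change of SOX2 KO against WT embryos (limma, on log2 of the normalized read count plus 1) against the mean normalized read count over 10 embryos on a log scale, for all tested genes in grey, heat shock protein genes in red and DNAJ genes in blue, with dotted lines at a 2-fold change. HSPB1 lies at -1.29 with a mean of 3616, and HSPB3, DNAJA4 and DNAJC1 lie above the upper dotted line.

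In 5 members every WT embryo was above every SOX2 KO embryo, namely HSPB1, HSP90AA1, HSP90AB1, HSPA14 and HSPA4L. This pattern held for 2.76% of all tested genes. For the 4 of them whose mean reached 100, the share among all genes of that range was 6.77%. In no member was every SOX2 KO embryo above every WT embryo, a pattern that 6.41% of all tested genes showed.

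**Figure D2:**
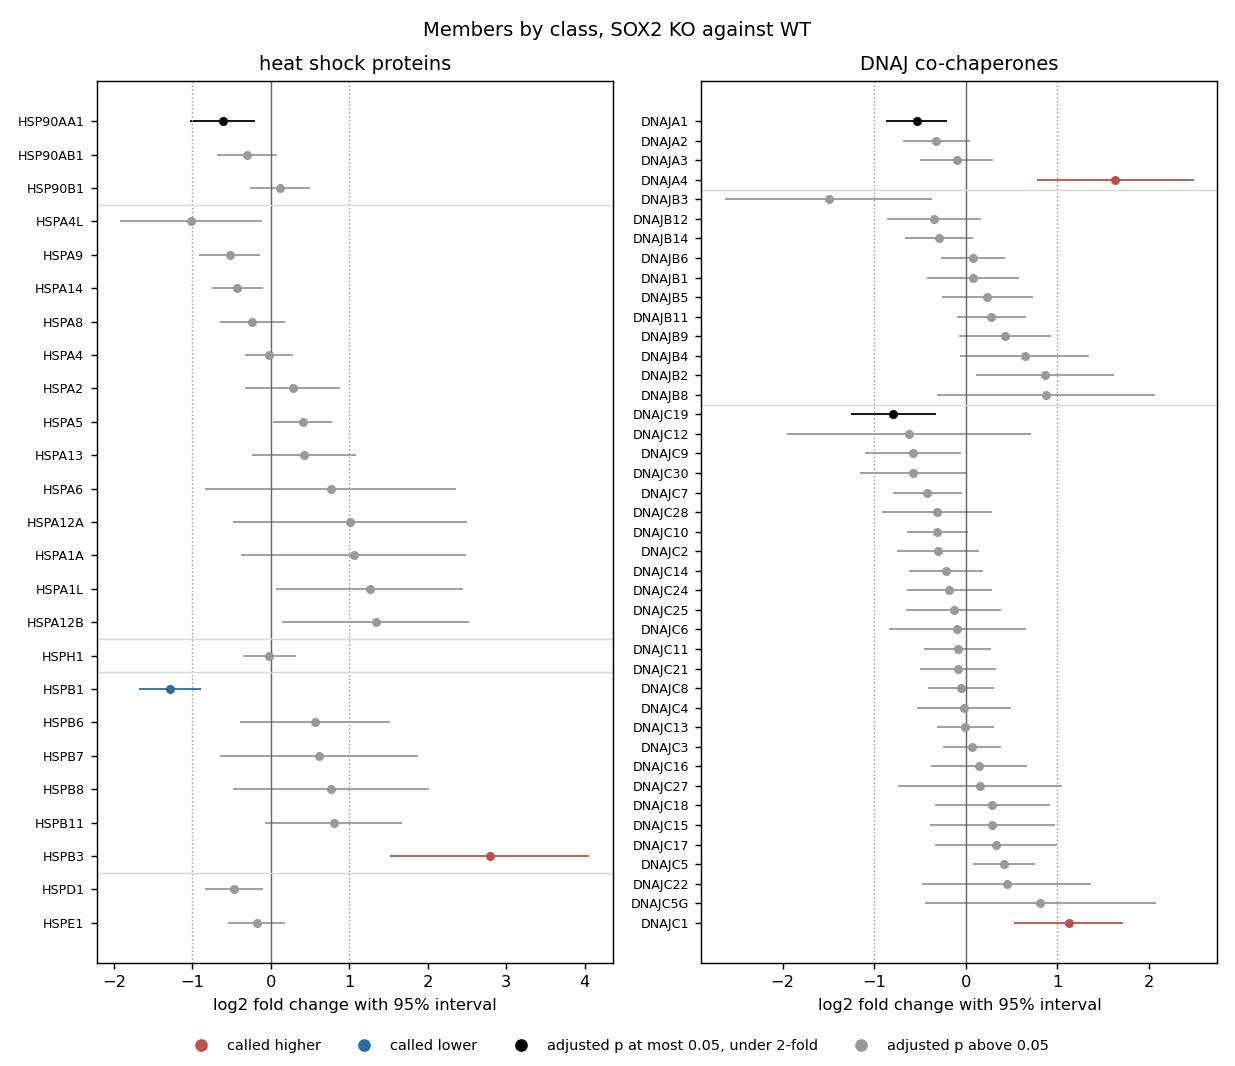
Log2 fold change with its 95% interval (limma) of SOX2 KO against WT embryos for the 25 heat shock protein genes (left) and the 42 DNAJ genes (right), grouped by class with dotted lines at a 2-fold change. Red points were called higher, the blue point called lower, black points had an adjusted p of at most 0.05 with a smaller change, and the intervals of the grey points that lie wholly to 1 side of 0 belong to genes with an adjusted p above 0.05.

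Among the HSP90 genes, HSP90AA1, the stress-responsive cytosolic isoform, fell in SOX2 KO embryos. It was at 10399.6, 11599, 9786, 10941 and 10362 normalized read counts in WT embryos and at 6879.9, 6538, 6409.6, 8393 and 6521 in SOX2 KO embryos. The groups did not overlap, and ko4 stood apart from the other SOX2 KO embryos. The means were 10618 ± 684 and 6948 ± 827 (SD, n = 5), with a log2 fold change of -0.62 ± 0.20 (SE, limma, adjusted p = 0.0447). The adjusted p was 2.9e-05 in DESeq2 and 0.0186 in edgeR, but in limma it stayed at or under 0.05 in only 2 of 10 fits that left out 1 embryo, those without nc3 and without ko4. It was 0.0547 and 0.0589 in limma with pseudocounts of 0.1 and 5 in place of 1. HSP90AB1, the constitutive cytosolic isoform, was at 7008, 7823, 6655, 7437 and 7551 in WT and at 5598, 6424, 5539, 5797 and 6239 in SOX2 KO embryos. These groups did not overlap either, but the log2 fold change of -0.30 (95% interval -0.68 to 0.08, limma, adjusted p = 0.257) did not pass the test in limma. The adjusted p of HSP90AB1 was 0.0336 in DESeq2 and 0.1265 in edgeR. HSP90B1, the HSP90 of the endoplasmic reticulum (ER), had means of 1918 ± 149 and 2138 ± 534 (SD, n = 5) and a log2 fold change of 0.12 (limma, adjusted p = 0.694). Its WT embryos were close together and its SOX2 KO embryos were not, from 1269 in ko4 to 2664 in ko3.

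None of the 13 HSPA genes was called by limma, DESeq2 or edgeR, and at an unadjusted p under 0.05 in limma 3 were higher and 3 lower, where 24.0% of all tested genes were higher and 8.37% lower. The log2 fold change was above 0 in 8 of the 13 and below 0 in 5, with a median of 0.40, beside 0.25 over all tested genes. Higher were HSPA5 (0.40, limma, adjusted p = 0.124), HSPA12B (1.34, adjusted p = 0.114) and HSPA1L (1.26, adjusted p = 0.137). HSPA12B had 16 reads in WT and 37 in SOX2 KO embryos, and HSPA1L 3 and 11. HSPA8, the constitutive cytosolic HSP70, had means of 8706 ± 687 in WT and 7425 ± 938 in SOX2 KO embryos (SD, n = 5), which differed by -0.24 on the log2 scale (95% interval -0.65 to 0.18, limma, adjusted p = 0.425). HSPA14, an HSP70 that works at the ribosome, was at 163, 174, 163, 172 and 163 in WT and at 127, 149, 119.8, 124 and 104 in SOX2 KO embryos. The WT embryos were all but level, every SOX2 KO embryo was below them, and the log2 fold change was -0.43 ± 0.16 (SE, limma, adjusted p = 0.0741). Among 4548 genes whose mean reached 100, 0.374% had a smaller SD of the log2 values in WT embryos than HSPA14. HSPA4L, of the HSP110 family, was at 8.95 to 17.1 in the WT group and 3.29 to 8.91 in the SOX2 KO group, from 78 and 27 reads. Its log2 fold change of -1.01 ± 0.43 (SE) missed the threshold in limma (adjusted p = 0.1145) and passed it after quantile normalization (-1.60, adjusted p = 0.0234). The nucleotide exchange factors HSPH1 and HSPA4 differed on the log2 scale by -0.02 (95% interval -0.36 to 0.33, limma, adjusted p = 0.955) and -0.03 (-0.34 to 0.28, adjusted p = 0.914).

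The largest fall among members with an adjusted p of at most 0.05 was that of HSPB1, the small heat shock protein also known as HSP27, which holds unfolding proteins and binds actin filaments. HSPB1 was at 3678, 6751, 4536, 5239.5 and 5489 in WT embryos and at 1953, 2776, 2127, 1671 and 1936 in SOX2 KO embryos. The lowest WT embryo was above the highest SOX2 KO embryo. The means were 5139 ± 1143 and 2092 ± 415 (SD, n = 5), and the log2 fold change was -1.29 ± 0.19 (SE), 0.410 of the WT level (limma, adjusted p = 3.47e-04). HSPB1 was called lower in 11 of 11 other settings and in 10 of 10 fits that left out 1 embryo, with log2 fold changes from -1.40 to -1.18 in the latter. In whole embryos, fewer cells of a type and less RNA per cell cannot be told apart.

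HSPB3, a small heat shock protein described in muscle, rose from a low level. It was at 0.763, 2.97, 1.99, 0 and 15.9 in WT and at 24.5, 33.0, 14.0, 14.8 and 26.5 in SOX2 KO embryos, from 32 and 100 reads in all. The WT embryo nc5 lay among the SOX2 KO embryos, and the other 4 WT embryos were below all of them. HSPB3 differed by 2.79 ± 0.61 on the log2 scale (SE, limma, adjusted p = 0.00706), and the gene was called higher in every setting and left-out fit, from 1.73 (pseudocount 5) to 3.79 (pseudocount 0.1) over the settings and from 2.37 to 3.39 in the left-out fits. The remaining small heat shock genes, HSPB6, HSPB7, HSPB8 and HSPB11, had log2 fold changes from 0.56 to 0.80 and adjusted p from 0.189 to 0.499 in limma, on 7 to 96 reads a group. HSPB7 had 7 reads in WT and 8 in SOX2 KO embryos, too few to show a difference. HSPB11 is carried in the RefSeq gene table (assembly ARS-UCD2.0) as a synonym of IFT25, a part of the intraflagellar transport machinery.

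**Figure D3:**
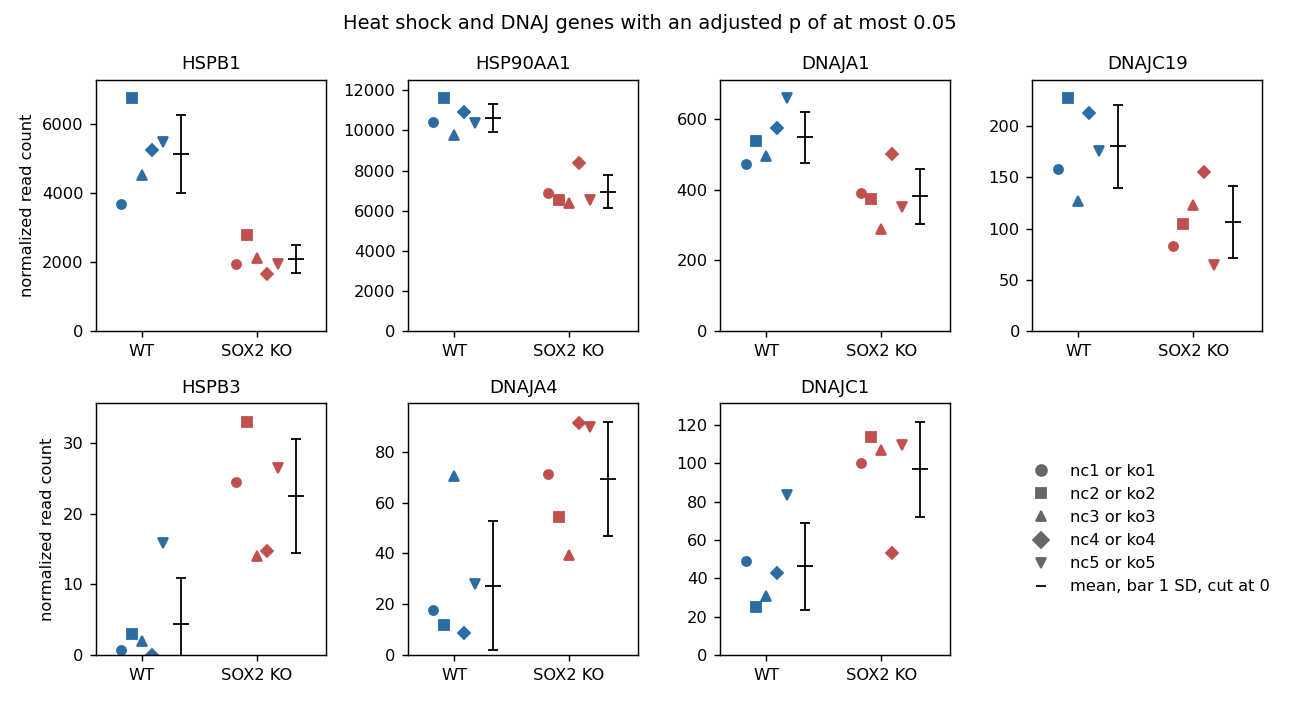
Normalized read counts of the 7 members with an adjusted p of at most 0.05 (limma) in each of 5 WT (blue) and 5 SOX2 KO (red) embryos, with the mean and a bar of 1 SD cut at 0, each axis starting at 0 and each marker shape standing for a column number that does not pair embryos. HSPB1 and HSP90AA1 do not overlap between the groups, and in the other 5 genes at least 1 embryo lies within the range of the other group.

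Among the DNAJA genes, type I J-domain proteins, DNAJA1 fell and DNAJA4 rose. DNAJA1, a cytosolic partner of HSPA8, was at 474, 538, 495, 574 and 658 in WT and at 389.7, 375, 288, 502 and 352 in SOX2 KO embryos. Only ko4 reached into the WT range. DNAJA1 fell by 0.54 ± 0.16 on the log2 scale (SE, limma, adjusted p = 0.0335), and the adjusted p stayed at or under 0.05 in 4 of 10 left-out fits. It was 0.0539 in limma after quantile normalization. DNAJA4, which is raised by heat in several tissues, was at 17.6, 11.9, 70.6, 8.55 and 27.7 in WT and at 71.3, 54.1, 39.5, 91.2 and 89.9 in SOX2 KO embryos. The WT embryo nc3 was level with the SOX2 KO embryos, and the other 4 were below them. DNAJA4 rose by 1.63 ± 0.41 on the log2 scale (SE, limma, adjusted p = 0.0152). The call was lost without ko5 (adjusted p = 0.0508) and with the RN18S1 share as a covariate (1.27, adjusted p = 0.270). DNAJA2 had a log2 fold change of -0.32 (limma, adjusted p = 0.205), which was -0.47 without nc3 (limma, adjusted p = 0.0470), and DNAJA3 is described with the mitochondrial members.

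None of the 11 DNAJB genes was called by limma, DESeq2 or edgeR, and at an unadjusted p under 0.05 in limma 1 was higher and 1 lower, also beside 24.0% and 8.37% of all genes. DNAJB6, a suppressor of protein aggregation, was at 483 to 541 in WT embryos and at 420 to 522 in SOX2 KO embryos other than ko4, which was at 812. Its log2 fold change was 0.08 (95% interval -0.27 to 0.43, limma, adjusted p = 0.781), and -0.08 without ko4. The lower DNAJB gene was DNAJB3, at 11.4, 17.8, 11.9, 4.66 and 3.54 in WT and at 1.11, 1.32, 3.49, 4.93 and 2.31 in SOX2 KO embryos, from 51 and 13 reads. The log2 fold change was -1.50 ± 0.54 (SE, limma, adjusted p = 0.0686), and the gene was called lower without ko4 (-1.70, adjusted p = 0.0357) and after quantile normalization (-2.23, adjusted p = 0.0193). DNAJB3 overlaps the gene UGT1A6 in the gene table, so its reads are uncertain. The higher one was DNAJB2, a neuronal J protein, with means of 29.9 ± 22.3 and 47.3 ± 11.5 (SD, n = 5) and a log2 fold change of 0.87 (limma, adjusted p = 0.108). Without nc3, its highest WT embryo at 66.6, it was called higher (1.21, adjusted p = 0.0181).

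Of the 27 DNAJC genes, the most varied class, 1 was called higher, beside 8.93% of all tested genes. By the adjusted p alone 1 was lower, without reaching 2-fold, beside 3.2%. At an unadjusted p under 0.05 in limma 2 were higher and 3 lower, beside 24.0% and 8.37%. DNAJC1, a J protein of the ER membrane whose J domain faces the lumen, was at 48.8, 25.2, 30.8, 42.7 and 83.2 in WT and at 100.2, 114, 107, 53.4 and 109.5 in SOX2 KO embryos. Here too ko4 stood apart, as the only SOX2 KO embryo within the WT range. The log2 fold change was 1.12 ± 0.29 (SE, limma, adjusted p = 0.0162), and 0.93 in edgeR, where it was under 2-fold with an adjusted p of 0.0332. It was also under 2-fold without nc2 (0.94, limma, adjusted p = 0.0431), and the call was lost with the RN18S1 share as a covariate, at a log2 fold change of 1.10 (limma, adjusted p = 0.179). DNAJC19, part of the motor that imports proteins into mitochondria, was at 158, 227, 127, 213 and 176 in WT and at 83.5, 104, 123, 155 and 64.6 in SOX2 KO embryos. The groups overlapped only through nc3 and ko4. DNAJC19 fell by 0.79 ± 0.22 on the log2 scale (SE, limma, adjusted p = 0.0249), and the adjusted p stayed at or under 0.05 in 6 of 10 left-out fits. DNAJC13, which acts in endosome traffic, had means of 312 ± 38.5 and 311 ± 34.0 (SD, n = 5) and a log2 fold change of 0.00 (95% interval -0.31 to 0.31, limma, adjusted p = 0.993). DNAJC5, the cysteine string protein of secretory vesicles, had means of 244 ± 40.9 and 326 ± 57.2 (SD, n = 5) and a log2 fold change of 0.42 (limma, adjusted p = 0.0875).

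Mitochondrial members had mostly lower values in SOX2 KO embryos and members of the ER lumen mostly higher ones, but only 1 gene of each list passed the test. These lists of 9 and 7 genes were drawn from textbook location after the values had been seen, so they are a description. Among the 9 mitochondrial members, 8 had a log2 fold change below 0, with a median of -0.31. Of all tested genes 37.1% were below 0, and of those whose mean reached 100, 62.0%. DNAJC19 was the 1 mitochondrial member with an adjusted p of at most 0.05. HSPA9, the mitochondrial HSP70 that pulls proteins in through the import pore, was at 897, 1087, 553, 986 and 812 in WT and at 494, 652, 562, 792 and 487 in SOX2 KO embryos. Only nc3 lay among the SOX2 KO embryos, and the log2 fold change was -0.53 ± 0.19 (SE, limma, adjusted p = 0.0619). HSPD1, the chaperonin subunit, was at 1006, 1283, 767, 1116 and 989.8 in WT and at 669, 693, 763, 1070.3 and 565 in SOX2 KO embryos, with a difference of -0.47 ± 0.18 on the log2 scale (SE, limma, adjusted p = 0.0787). Its lid, HSPE1, had a log2 fold change of -0.18 (limma, adjusted p = 0.485). In 7 of the 9 genes ko4 was the highest SOX2 KO embryo. Without ko4 the median was -0.32, and HSPA9 (-0.63, adjusted p = 0.0186), HSPD1 (-0.61, adjusted p = 0.0136) and DNAJC19 (-0.94, adjusted p = 0.00603) were at or under 0.05 in limma. Without nc3 this also held for HSPA9 (-0.68, adjusted p = 0.0125) and HSPD1 (-0.57, adjusted p = 0.0329) in limma. For HSPA9 and HSPD1 these were the only 2 of 10 left-out fits at or under 0.05. With the RN18S1 share as a covariate HSPA9 was at -0.19 (limma, adjusted p = 0.712) and HSPD1 at -0.15 (limma, adjusted p = 0.764). The median of the 9 genes was then -0.15. DNAJC15, the 1 member above 0, was at 0.29 with all embryos and at -0.05 without ko4.

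Of the 7 ER lumen members, 6 had a log2 fold change above 0, with a median of 0.28. Above 0 were 12612 of all 20056 tested genes and 1727 of the 4548 whose mean reached 100. DNAJC1 was the 1 ER lumen member that rose. HSPA5, the ER HSP70 also known as BiP, was at 1120.3, 1167, 998, 989.9 and 1358 in WT and at 1417, 1878, 1833, 973 and 1502 in SOX2 KO embryos. All SOX2 KO embryos except ko4 were above the WT embryos, and ko4 was below them all. The log2 fold change was 0.40 ± 0.18 (SE, limma, adjusted p = 0.124) with all 10 embryos, and 0.56 ± 0.15 (SE, limma, adjusted p = 0.0163) without ko4. For HSPA5 this was the only 1 of 10 left-out fits at or under 0.05. Of 11 other settings, 1 was at or under 0.05, that with sample quality weights (limma, adjusted p = 0.0361). With the RN18S1 share as a covariate HSPA5 was at 0.39 (limma, adjusted p = 0.442). The J proteins DNAJB11 and DNAJB9, which serve HSPA5, differed by 0.28 and 0.43 on the log2 scale, with adjusted p of 0.290 and 0.222 in limma. In 5 of the 7 genes ko4 was the lowest SOX2 KO embryo, and without it the median was 0.40. DNAJC10, an ER disulfide reductase, was the exception to the direction, at -0.31 (limma, adjusted p = 0.186). The list keeps DNAJC1, an ER membrane protein whose J domain faces the lumen. It leaves out the other ER membrane J proteins DNAJB12, DNAJB14 and DNAJC14. Their log2 fold changes were -0.35, -0.29 and -0.21 (limma, adjusted p = 0.341, 0.267 and 0.457).

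**Figure D4:**
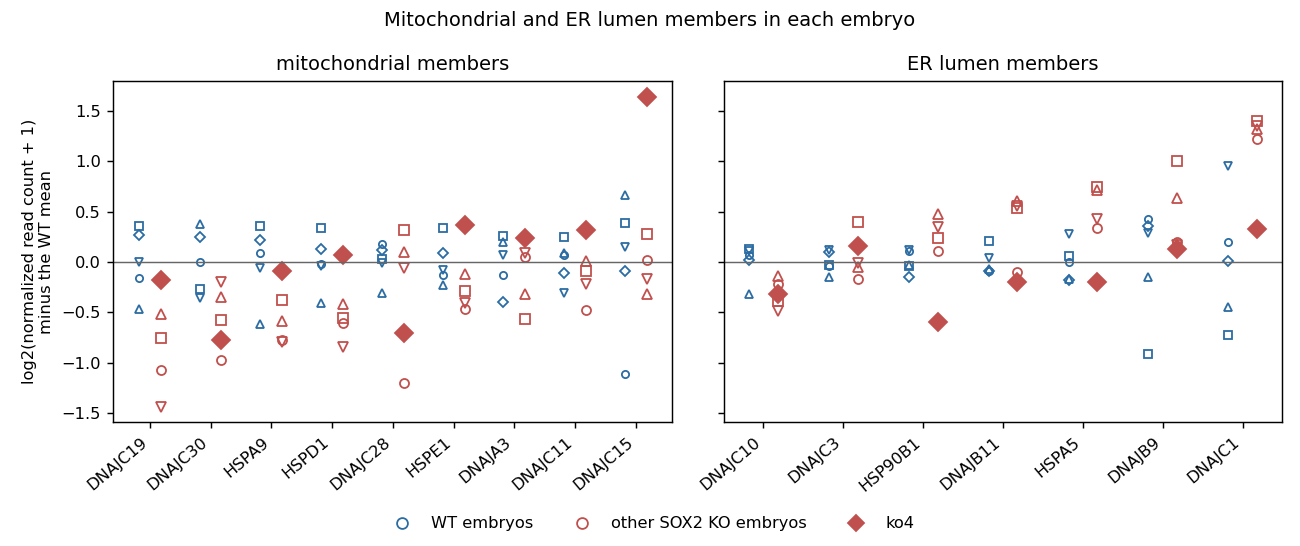
Log2 of the normalized read count plus 1, minus the WT mean of the gene, in each of 5 WT (blue) and 5 SOX2 KO (red) embryos for the 9 mitochondrial (left) and 7 ER lumen members (right), with ko4 as a filled diamond. In 7 of 9 mitochondrial genes ko4 is the highest SOX2 KO embryo, and in 5 of 7 ER lumen genes it is the lowest.

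Over the 29 members whose mean reached 100, ko4 was the highest SOX2 KO embryo in 18, or 62.1%, beside 44.7% of all genes in that range. Among WT embryos nc2 was the highest in 16 of the 29, or 55.2%, beside 28.2% of all genes. The library nc2 held the fewest reads of all 10.

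The widest spread between single embryos among the 29 members whose mean reached 100 was that of HSPA1A. This classical heat-inducible HSP70 was at 249.6, 16.3, 1161, 219.9 and 238 in WT and at 519, 579.7, 395, 115 and 741 in SOX2 KO embryos. The highest and the lowest of the 10 were both WT, nc3 and nc2. The SD of its log2 values was 2.18 in WT and 1.05 in SOX2 KO embryos, where the medians over the 4548 genes whose mean reached 100 were 0.27 and 0.27. Only 1 of those genes had a larger SD in WT embryos and 23 in SOX2 KO embryos. The log2 fold change of 1.05 ± 0.69 (SE, limma, adjusted p = 0.293) did not pass the test, and it was 0.19 without nc2 (limma, adjusted p = 0.825) and 1.70 without nc3 (limma, adjusted p = 0.0619). With the RN18S1 share as a covariate its sign turned (-0.46, limma, adjusted p = 0.810). HSPA1A carries the synonym HSPA1B in the gene table and lies beside HSPA1L, and reads of such near copies can be split or pooled in counting. HSPA1L itself had 3 reads in WT and 11 in SOX2 KO embryos.

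The embryo nc3 was also the highest WT embryo for DNAJB1, HSPH1, DNAJA4 and BAG3, which are heat-inducible too and were picked after their values had been seen. It was the lowest WT embryo for HSP90AA1, HSP90AB1, HSPD1 and HSPE1. Over the 29 members whose mean reached 100, nc3 was the highest WT embryo in 20.7%, beside 17.8% of all genes in that range. It was the lowest in 37.9% of these members, beside 37.5% of all genes. DNAJB1, the heat-inducible J protein, was at 136, 97.9, 265, 178 and 203 in WT and at 148, 242, 156, 126 and 241 in SOX2 KO embryos, with a log2 fold change of 0.08 (95% interval -0.42 to 0.58, limma, adjusted p = 0.849). HSPH1 was at 449 in nc3 and at 292 to 407 in the other WT embryos. BAG3, an HSP70 co-chaperone that is also heat-inducible and is no member by symbol, was at 34.3, 20.8, 156, 38.9 and 63.7 in WT and at 111, 179.6, 105, 67.4 and 99.2 in SOX2 KO embryos. As in DNAJA4, the other 4 WT embryos were below every SOX2 KO embryo, and the log2 fold change was 1.11 (limma, adjusted p = 0.0534). HSPA6, another inducible HSP70, had 24 and 63 reads and reached 40.4 in ko5 alone.

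**Figure D5:**
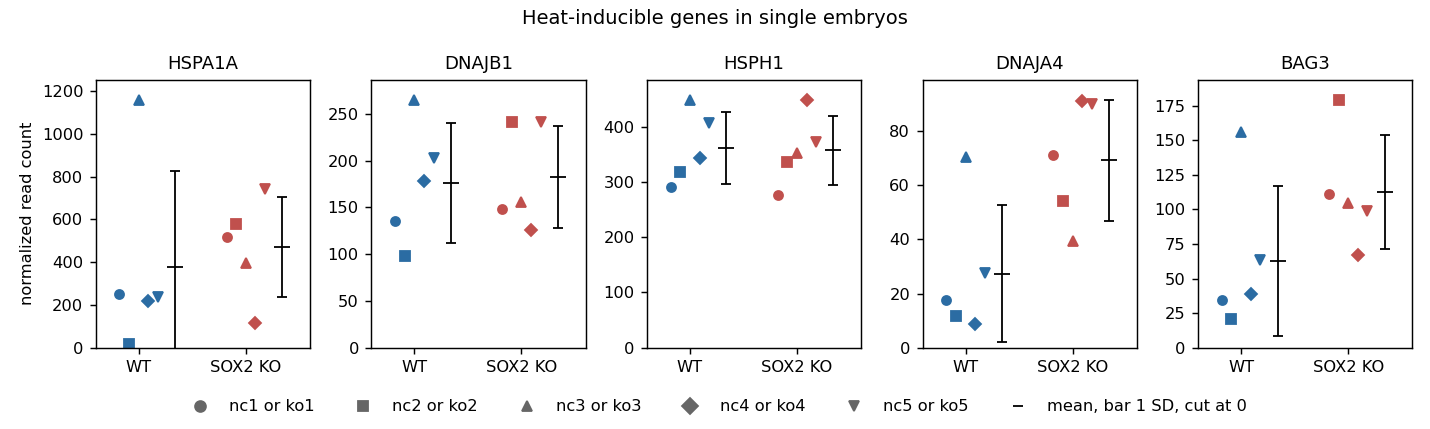
Normalized read counts of 5 heat-inducible genes (HSPA1A, DNAJB1, HSPH1, DNAJA4 and the co-chaperone BAG3) in each of 5 WT (blue) and 5 SOX2 KO (red) embryos, with the mean and a bar of 1 SD cut at 0 and axes starting at 0. Apart from HSPA1A the genes were picked after their values had been seen. The triangle nc3 is the highest WT embryo in each, at 1161 for HSPA1A, where the square nc2 is at 16.3.

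The reads of the 67 members summed to 41610 to 49426 normalized counts per WT embryo and 33432 to 38028 per SOX2 KO embryo, with no overlap and a ratio of the means of 0.790. As a share of all reads other than RN18S1 this was 1.91 to 2.08% in the WT group and 1.54 to 1.71% in the SOX2 KO group. The 4 genes with the most reads, HSP90AA1, HSPA8, HSP90AB1 and HSPB1, made 98.7% of this difference. They summed to 28480 to 35401 and 20214 to 24224, while the other 63 members summed to 12821 to 14025 and 12009 to 13979, which overlap. This is a net difference, in which members that differ in opposite directions cancel. Among the other 63, the ER lumen members had mean sums of 3825 in WT and 4557 in SOX2 KO embryos. The mitochondrial members had mean sums of 4191 and 3398, and both sums overlapped between the groups. By class the ratio of the means was 0.757 for HSP90, 0.419 for HSPB, 0.910 for HSPA, 0.828 for HSPD and HSPE, 0.808 for DNAJA, 1.12 for DNAJB and 0.974 for DNAJC, and only the HSP90 and HSPB sums did not overlap. Almost all reads of the HSPB sum were those of HSPB1, and the other 5 HSPB genes had log2 fold changes above 0. Read counts here are not divided by transcript length, so these sums weight long and abundant transcripts and levels are not compared between genes.

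The other genes of the chaperone system were read from 7 lists of 85 genes, of which 83 were tested. In these 83, limma called 2 higher and 0 lower, beside 8.93% and 1.16% of all tested genes. At an adjusted p of at most 0.05 alone 6 were higher, beside 10.4%, and 2 lower, beside 3.2%. At an unadjusted p under 0.05, 13 were higher, beside 24.0%, and 11 lower, beside 8.37%. DESeq2 and edgeR each called 2 higher and 1 lower. The median log2 fold change was -0.02. Among those called higher was CRYAB, the small heat shock protein alpha-B crystallin, which started from almost no reads. CRYAB had 2 reads in WT embryos, both in nc4, and 84 in SOX2 KO embryos, at 11.1, 2.64, 11.6, 11.5 and 55.3 (log2 fold change 3.45, limma, adjusted p = 0.0022). SEC63, the J protein of the ER translocon, rose from 243 to 369.7 (0.59, limma, adjusted p = 0.0223), and all its SOX2 KO embryos but ko5 were above the WT embryos.

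Among 5 HSF regulators, HSF2 fell, at 70.2 to 116 in the WT group and 44.4 to 64.7 in the SOX2 KO group without overlap (log2 fold change -0.70, limma, adjusted p = 0.0318). HSF1 had a log2 fold change of 0.13 (limma, adjusted p = 0.671). Below 0 were 37.1% of all tested genes and 62.0% of the genes whose mean reached 100, with medians of 0.25 and -0.11. Of 18 HSP90 co-chaperones 12 were below 0, with a median of -0.21, and of 14 HSP70 co-chaperones 10 were below 0, with a median of -0.05. In these 2 lists no gene had an adjusted p of at most 0.05 in limma, none was called by DESeq2 or edgeR, and at an unadjusted p under 0.05 there were 1 higher and 4 lower, and 1 higher and 2 lower. Of 15 chaperonin and prefoldin genes 13 were below 0, with a median of -0.20, and TCP1, a subunit of the cytosolic chaperonin, fell (-0.54, limma, adjusted p = 0.0440). Of 16 genes of the ER unfolded protein response 13 were above 0, with a median of 0.33. By the adjusted p alone, beside 10.4% of all tested genes, 3 rose without reaching 2-fold. These were ATF6, a sensor of unfolded proteins (0.72, limma, adjusted p = 0.0114), CRELD2, an ER chaperone (0.69, adjusted p = 0.0282), and ERN1, the sensor IRE1 (0.92, adjusted p = 0.0339). Of 9 mitochondrial protein quality control genes 5 were above 0 and 4 below, with a median of 0.03, and none had an adjusted p of at most 0.05 in limma or was called by DESeq2 or edgeR, with 1 higher and 1 lower at an unadjusted p under 0.05.

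Markers of cumulus and blood cells were low. The sum of 7 cumulus cell markers was 10.4 to 61.4 in the WT group and 32.0 to 71.3 in the SOX2 KO group, and the sum of 5 blood markers 21.0 to 48.4 and 34.3 to 83.5. Among the blood markers PTPRC was called higher, from 2 and 24 reads (limma, adjusted p = 0.0259). Of 7 primitive endoderm markers HNF4A (-2.85) and PDGFRA (-2.01) were called lower on the log2 scale, FOXA2 (1.53, limma, adjusted p = 0.0810) and LAMA1 (1.07, adjusted p = 0.0860) were above 0 without passing the test, and the sum was 1398 to 1835 in the WT group and 1237 to 1410 in the SOX2 KO group. Most of that sum came from GATA6, with means of 958 and 871 and a log2 fold change of -0.12 (limma, adjusted p = 0.584). No source states that the embryos of a group came from separate fertilizations, so the p-values measure the spread between these embryos.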

How the data were processed

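RNA-seq of single bovine early blastocysts (5 WT, 5 SOX2 KO, Smart-seq2) was analysed from 1 table of the series. The values are of the unit signal: the authors deposited reads per gene divided by a DESeq2 size factor, here called normalized read counts. Per the labels, reads were trimmed with Trimmomatic, aligned with HISAT2 to ARS-UCD1.2 and counted with featureCounts. All 201120 values were whole multiples of the smallest positive value of their column (tolerance 0.001), so whole reads were recovered for the alternatives.

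Genes whose mean reached 1 entered the test, as log2(normalized read count + 1) with limma 3.58.1 (lmFit, eBayes with trend; R 4.3.3), with Benjamini-Hochberg adjustment over all 20056. Fold changes on this scale understate the change of low genes. A call needed both an adjusted p not above 0.05 and a change of 2-fold or more in either direction. DESeq2 1.42.0 and edgeR 4.0.16 on recovered reads, other scalings, filters, pseudocounts, sample weights, a covariate and left-out embryos were alternatives. Scripts were tested on simulated data. Reads carry no molecular identifiers, so they count amplified copies.

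The members and all gene lists were chosen with earlier results of these data known. Members are named when past an adjusted p of 0.05, when groups do not overlap, when among the 2 highest means of a class, or when 1 embryo stands apart. HSPA9, HSP90B1, HSPA4, HSPA6, DNAJA3, DNAJB1, DNAJB2, DNAJB3, DNAJB9, DNAJB12, DNAJB14, DNAJC14, DNAJC16, DNAJC18, HSPA12B, HSPB6, HSPB8, BAG3, HSF1 and HSF4 were named after their values were seen. Of the members, 66 matched the ARS-UCD2.0 gene table by symbol, and 10 overlap another counted gene there (DNAJB3, DNAJB12, DNAJC5G, DNAJC9, DNAJC16, DNAJC17, DNAJC24, HSPA4L, HSPA8 and HSPA12A), so their reads may be shared. SOX17, PTX3 and HBB of the marker lists and CRYAA and ODF1 were not tested. 1 gene that was called in the other chaperone lists is counted but not reported here by name.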

Additional observations from a re-analysis of the deposited data

Results flagged for a closer look

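In 13 of 134 groups of 5 embryos, 1 for each member and group, a single embryo stood apart from the other 4 by Dixon's criterion. For independent groups of normally distributed values the criterion would mark about 1 in 20, or 6.7 of 134. The groups here share the same embryos, the values were untransformed read counts, and some marked groups hold few reads. The 13 groups were therefore not tested against chance. The SOX2 KO embryo ko4 was the one apart in 4 of these groups. It was highest for HSP90AA1 (8393, others 6409.6 to 6879.9), DNAJC15 (356, others 90.7 to 137) and DNAJB6 (812, others 419.7 to 522), and lowest for DNAJC1 (53.4, others 100.2 to 114). The WT embryo nc3 was apart in 5 groups, highest for HSPA1A (1161, others 16.3 to 249.6), DNAJB6 (541, others 483 to 490.5) and DNAJC5G (3.98, which is 4 reads) and lowest for HSPA8 (7503, others 8856 to 9229) and DNAJC10 (135, others 171 to 185). In HSPB3 the WT embryo nc5 was at 15.9, where the others were at 0 to 2.97. In HSPA2, a testis-enriched HSP70, ko2 was at 115, where the others were at 50.1 to 62.3. HSPA1L in nc2 (4.45, which is 3 reads) and HSPB7 in nc4 (4.66, which is 6 reads) rest on few reads.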

How the results depend on the processing

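Of the members' calls, 3 higher and 1 lower, HSPB1 and HSPB3 were kept in every alternative. Sample quality weights gave 6 higher (DNAJB2, HSPA12B and HSPA1L added), the RN18S1 share as a covariate 1 higher, quantile normalization 3 lower (DNAJB3 and HSPA4L added), and no threshold on the fold change 4 lower. Leaving out 1 embryo gave 2 to 4 higher (4 without nc3, with DNAJB2, 2 without nc2 or ko5) and 1 to 2 lower (2 without ko4, with DNAJB3). Of the other chaperone-system genes, 2 higher and 0 lower, the median log ratio of well-read genes gave 4 higher, quality weights 4 and 1 lower, quantile normalization 1 and 1, the covariate 0 higher, a minimum mean of 10 gave 0 higher (CRYAB falls under it), no fold threshold 6 and 2, DESeq2 and edgeR 1 lower each, and leaving out 1 embryo 2 to 4 higher (4 without nc3) and 0 lower. Except for that minimum mean and the fold threshold, the cause was not tested. Quantile normalization moved the median of all genes by -0.27 on the log2 scale and the calls of all genes from 1792 higher and 232 lower (88.5% higher) to 629 and 447 (58.5%), while the members' median was 0.01. The covariate gave 137 and 83 (62.3%), and quality weights 3229 and 286. The minimum mean of 10 gave 502 and 190 (72.5%), and pseudocount 5 gave 1002 and 183. Leaving out 1 embryo gave 771 (without ko5) to 3057 (without ko4) higher. For the 28 members named by rule, 557 of 584 values kept direction and side of the threshold, 5 lost the call (DNAJA4, DNAJC1), 2 gained one (HSPA1L, HSPA4L) and 20 turned sign without a call in either fit (DNAJC13, HSPH1, DNAJB6, DNAJC15, HSPA1A, HSPB7 and HSPE1). Of the other members, DNAJB3, DNAJB2 and HSPA12B gained calls as given above. No paired analysis was possible because replicate numbers in the labels could not be assigned to the SOX2 KO columns. In WT, HSPB7, HSPA1L, DNAJC5G and DNAJB8 had under 10 reads, so their fold changes are imprecise.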
